A study of Homo sapiens with 12 samples.

Results

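A set of 10 genes of the red cell programme were followed in K562, an established human chronic myeloid leukaemia line that can take on erythroid or megakaryocyte features in culture. They were the rows whose gene symbol is CA1, CA2, BPGM, BLVRB, PKLR, AHSP, HEMGN, TRIM58, SOX6 or BCL11A, and all 10 were found among the 19225 gene symbols of the deposited tables. PolyT-selected RNA sequencing had been done on 12 libraries in 4 groups of 3. Cells carried a negative control siRNA (siNC) or an siRNA against RHOB (siRHOB), and were kept for 3 days in growth medium (labelled Ctl) or in a megakaryocyte differentiation medium (labelled MK). The design asks how RHOB, a small GTPase, bears on megakaryocyte and erythroid differentiation. The control groups are labelled wild type and the siRHOB groups RHOB knockdown. All 4 groups are 1 leukaemia line, the siRNA is a transient knockdown, and the MK medium is not described further in the sources used here.

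Red cells carry carbon dioxide, spare oxygen and manage haemoglobin with a small set of abundant enzymes and factors. Carbonic anhydrases interconvert carbon dioxide and bicarbonate, BPGM makes the bisphosphoglycerate that lowers the oxygen affinity of haemoglobin, PKLR is the pyruvate kinase of liver and red cell, and BLVRB reduces biliverdin and flavins. AHSP is a chaperone of free alpha globin, HEMGN is a nuclear factor of erythroid differentiation, TRIM58 is an E3 ubiquitin ligase of late erythroblasts, and SOX6 and BCL11A are transcription factors that repress the embryonic and fetal globin genes. The erythroid and megakaryocyte lineages share a common progenitor and the factors GATA1 and TAL1, while KLF1 is the factor tied to the erythroid branch.

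The stretches of sequence below lie directly upstream of transcription starts of 4 of the genes, chosen because 3 of them fell together in MK medium and HEMGN had the highest mean level of the set. PKLR and HEMGN have 2 starts each, and the start shown for each is the one with more matches to the motifs below. They are from the RefSeq promoter table, build GRCh38.p14, each 250 bases long and written 5′ to 3′ on the gene's strand. Capitals mark matches to AGATAA or TGATAA (the core read by GATA factors) and to CCNCNCCC (a form of the CACC box read by KLF factors) on either strand, with overlapping matches counted separately. The windows are chr1:155301439-155301688 (minus strand) for PKLR, chr1:247856937-247857186 (plus strand) for TRIM58, chr19:40465746-40465995 (minus strand) for BLVRB and chr9:97938173-97938422 (minus strand) for HEMGN.
PKLR: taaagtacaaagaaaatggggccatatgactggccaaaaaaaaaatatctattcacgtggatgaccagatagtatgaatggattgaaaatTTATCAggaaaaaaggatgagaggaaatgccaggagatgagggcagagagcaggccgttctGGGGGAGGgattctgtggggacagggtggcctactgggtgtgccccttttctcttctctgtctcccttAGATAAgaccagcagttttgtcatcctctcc
TRIM58: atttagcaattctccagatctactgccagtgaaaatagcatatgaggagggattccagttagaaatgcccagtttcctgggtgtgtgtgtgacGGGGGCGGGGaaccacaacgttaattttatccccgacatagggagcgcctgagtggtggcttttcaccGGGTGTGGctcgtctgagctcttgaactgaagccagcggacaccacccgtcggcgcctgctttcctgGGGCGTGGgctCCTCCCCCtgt
BLVRB: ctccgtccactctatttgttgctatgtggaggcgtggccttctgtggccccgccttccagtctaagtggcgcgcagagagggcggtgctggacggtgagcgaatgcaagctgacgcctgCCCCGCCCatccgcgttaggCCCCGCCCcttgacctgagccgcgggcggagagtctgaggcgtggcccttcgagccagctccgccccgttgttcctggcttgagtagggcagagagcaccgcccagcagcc
HEMGN: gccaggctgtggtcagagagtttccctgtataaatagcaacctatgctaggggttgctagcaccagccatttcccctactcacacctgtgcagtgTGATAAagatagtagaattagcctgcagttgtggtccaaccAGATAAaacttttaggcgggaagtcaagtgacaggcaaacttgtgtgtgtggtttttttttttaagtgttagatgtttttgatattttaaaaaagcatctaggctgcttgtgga

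Sequence was matched for 7 of the 10 genes, with 17 starts between them (5 each for BCL11A and SOX6, 2 each for PKLR and HEMGN). AHSP was not matched, and CA1 and CA2 were left out of the search. Either GATA core stood in 4 of the 17 windows, both starts of HEMGN, 1 of PKLR and 1 of SOX6, beside 14.6% of 35116 promoters of the same length. The CACC form stood in 7 of the 17, 4 of BCL11A and 1 each of BLVRB, PKLR and TRIM58, beside 53.4% of all promoters. The PKLR window shown was the 1 member start that held both, beside 3.94% of all promoters. These matches describe letters in a window.

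The libraries held 34412558 to 54048161 reads each. Of the 12 megakaryocyte and platelet markers, GP9, PF4, SELP and VWF had 0 reads in both growth groups. In the MK siNC and siRHOB groups VWF had 182 and 222 reads over 3 libraries and SELP 99 and 67, while GP9 had 2 and 2 and PF4 4 and 4. The summed level of the 12 markers was 93.6 to 176.5 CPM (read counts scaled to a common library size, TMM-normalised) in siNC growth libraries against 1308 to 1647 in siNC MK libraries. All 12 K562 and erythroid markers had reads in every group. The summed level of 8 lymphoid markers was 8.68 to 12.5 CPM in growth siNC and 36.2 to 42.4 CPM in MK siNC libraries, most of it CD3D (5.36 ± 0.54 against 34.1 ± 4.03 CPM, log2 2.67, adjusted p = 1.77e-06), and MS4A1 was at 0 in every group. With siNC 2 of the 6 lymphoid markers tested rose and 1 fell (adjusted p under 0.05), beside 30.5% and 28.4% of all genes tested. With siRHOB 3 rose and 1 fell, beside 31.0% and 29.1% of all genes tested. Of 5 monocyte and granulocyte markers tested, 3 rose with siNC and 2 with siRHOB, beside the same 30.5% and 31.0% of all genes. Those that rose included MPO (0.0386 ± 0.047 against 9.51 ± 6.11 CPM with siNC) and CSF1R (0.0194 ± 0.034 against 3.98 ± 3.26 CPM). That list summed to 28.8 to 74.4 CPM in growth siNC and 61.1 to 73.7 CPM in MK siNC libraries. What part these markers have in the results below was not tested. Replicate 3 stood apart from replicates 1 and 2 in each group: the SD across genes of its log2 difference from their mean was 0.65 to 0.83, while that of replicate 2 against 1 was 0.38 to 0.47. The level of RHOB itself overlapped between the siRNA groups in both media. It was 4.10 ± 2.44 CPM with siNC and 2.31 ± 1.60 CPM with siRHOB in growth medium (SD, n = 3 each, exact two-sided permutation p = 0.5), and 18.6 ± 12.3 against 16.7 ± 4.90 CPM in MK medium (exact p = 1), where 3 against 3 cannot give a p below 0.1. Paired by replicate number, all 3 siRHOB libraries in growth medium were below their siNC partner, at 51.1%, 70.5% and 32.7% of it (blocked exact permutation p = 0.25, the smallest that 3 pairs allow), and 2 of 3 were in MK medium, at 97.9%, 152.6% and 67.7%. Groups are therefore called here by their siRNA label.

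The 10 genes spanned a wide range of levels. Per length, as the FPKM values (fragments scaled by gene length and by library total) that the authors deposited, the growth siNC libraries gave HEMGN 181 ± 27.5 and BLVRB 177 ± 19.2 at the top (SD, n = 3), with ranges that overlapped. PKLR followed at an FPKM of 56.2 ± 15.6, clear of BLVRB in every library. BPGM at 16.0 ± 1.27 and TRIM58 at 15.8 ± 2.00 overlapped in FPKM. CA1 stood at 11.2 ± 2.45 FPKM and AHSP at 4.76 ± 2.19, each below the ranges of the genes before it. SOX6 at 2.38 ± 0.40 and CA2 at 1.72 ± 2.12 FPKM overlapped their neighbours in the order.

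BCL11A closed the list. It had 0 reads in 11 libraries and 2 reads in MK siNC replicate 3, a level of 0.0534 CPM. In the 3 groups at 0, a limit of 3 reads over the group allows a level of up to 0.0222, 0.0253 and 0.0254 CPM, for counting error only. It did not pass the filter on low counts, and so 9 of the 10 genes were tested.

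In the MK siNC libraries the order of FPKM changed. HEMGN (155 ± 62.6) and BLVRB (108 ± 32.0) stayed highest and overlapped, and BPGM was next at 21.5 ± 2.93 FPKM. TRIM58 (6.68 ± 1.30), PKLR (3.73 ± 2.59) and SOX6 (3.13 ± 0.46) followed, and PKLR overlapped both of the others. AHSP (0.897 ± 0.53), CA1 (0.635 ± 0.37) and CA2 (0.527 ± 0.45) had the lowest FPKM of the 9, with overlapping ranges. The siRHOB groups had the same order, except that BPGM and TRIM58 changed places in growth medium, and CA1 and CA2 in MK medium; both pairs overlapped.

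**Figure D1:**
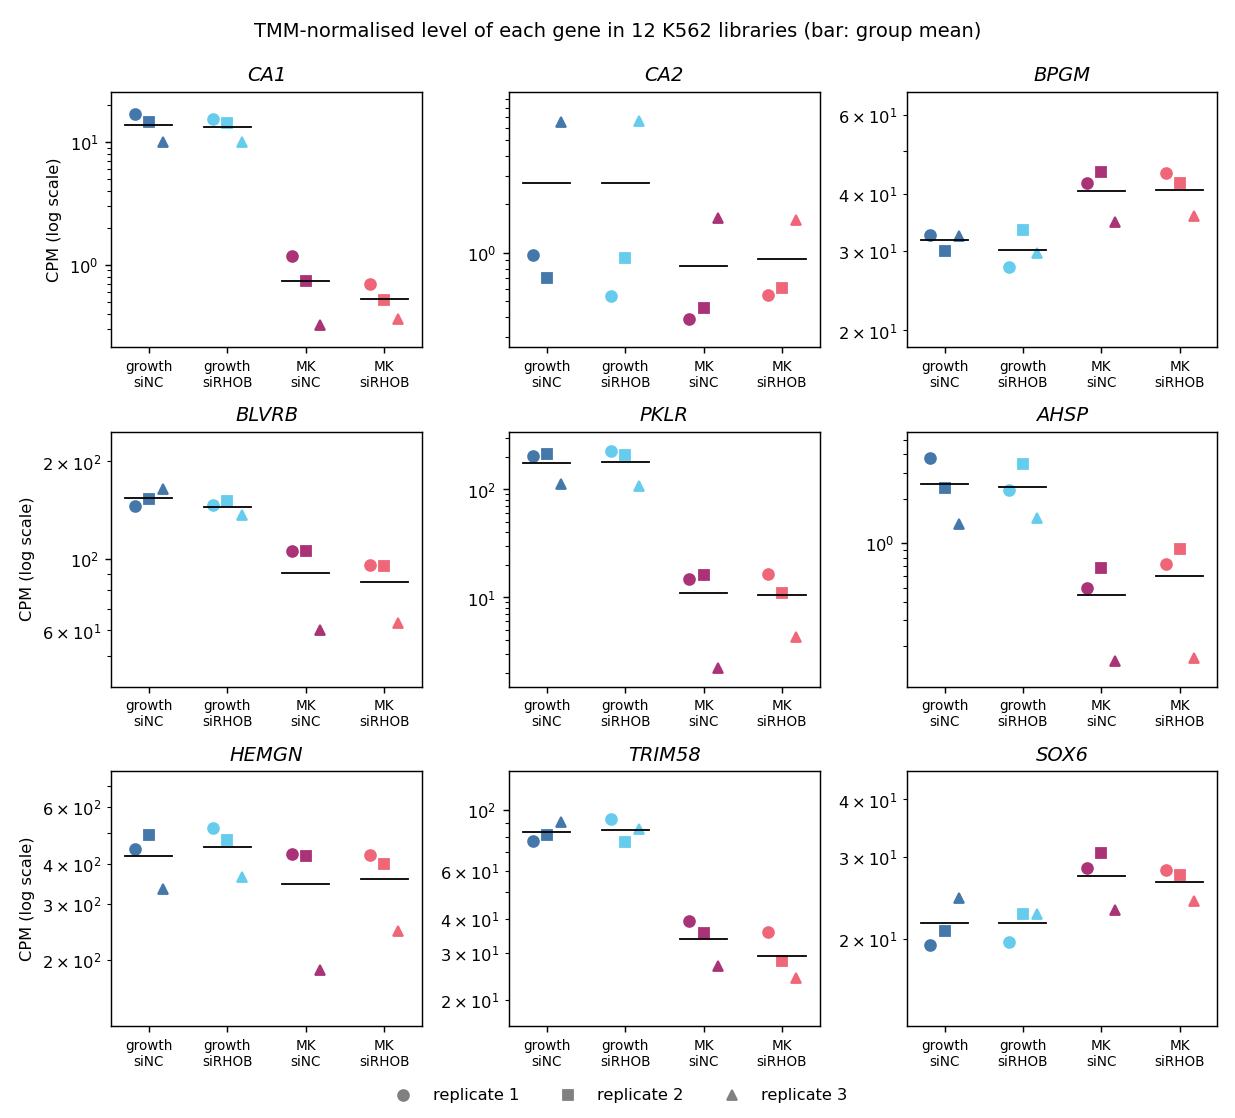
TMM-normalised level (CPM, log axis with a separate range in each panel) of the 9 tested genes in each of the 12 libraries, with marker shape for the replicate number and a bar at the group mean. CA1 and PKLR are far lower in all 6 MK libraries, while CA2 is highest in the replicate 3 libraries of both media.

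MK medium against growth medium was compared separately in each siRNA arm, and the arms share no library. With siNC, 5 of the 9 tested genes fell (CA1, PKLR, AHSP, TRIM58 and BLVRB) and 2 rose (BPGM and SOX6), at a Benjamini-Hochberg adjusted p under 0.05 in edgeR's quasi-likelihood test over all 14026 genes. Across all tested genes 58.9% were called in this comparison, 28.4% lower and 30.5% higher. With siRHOB the same 5 genes fell and 1 rose (BPGM), beside 60.1% of all genes called, 29.1% lower and 31.0% higher. The share called, 7 of 9 and 6 of 9, is near that background. The median log2 fold change of the 9 was -1.30 with siNC and -1.54 with siRHOB, beside 0.06 and 0.05 over all genes tested. In this bulk RNA, fewer cells of a type and less RNA per cell cannot be told apart.

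CA1, the abundant red cell carbonic anhydrase, had the largest fall in the fit of group means. In growth siNC libraries it was at 17.0, 14.5 and 10.1 CPM in replicates 1, 2 and 3, and in growth siRHOB libraries at 15.4, 14.3 and 10.1 CPM. In MK medium it was at 1.17, 0.739 and 0.320 CPM with siNC and at 0.702, 0.515 and 0.365 CPM with siRHOB. Every MK library lay under every growth library, and the MK groups rest on 80 and 63 reads in all. The fall was 18.6-fold with siNC (log2 fold change -4.22 ± 0.42 SE, adjusted p = 1.21e-05) and 24.9-fold with siRHOB (-4.64 ± 0.43, adjusted p = 6.39e-06). On FPKM with a pseudocount of 1 the log2 values were -2.91 and -3.01, smaller than those of PKLR (-3.77 and -3.75), so the order of these 2 genes turns with the scale.

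CA2, the high-activity carbonic anhydrase, varied widely within groups. Growth siNC libraries had 0.970, 0.699 and 6.49 CPM and growth siRHOB libraries 0.542, 0.936 and 6.64 CPM. MK siNC libraries had 0.390, 0.455 and 1.66 CPM and MK siRHOB libraries 0.551, 0.609 and 1.60 CPM. Replicate 3 was the highest library of all 4 groups, and the media overlapped in both arms. CA2 did not pass the test with siNC (log2 fold change -1.70 ± 1.11, adjusted p = 0.21) or siRHOB (-1.56 ± 1.10, adjusted p = 0.242). With the replicate number as a block, a fit that called 66.5% (siNC) and 67.7% (siRHOB) of all genes, it did, at -1.40 ± 0.41 (adjusted p = 0.011) and -1.01 ± 0.41 (adjusted p = 0.0449). The values lean on replicate 3. Without growth siNC replicate 3 the siNC value was -0.0009, without growth siRHOB replicate 3 the siRHOB value was 0.30, and neither passed. Those fits kept the MK replicate 3 of the same arm, which was also high. With replicates 1 and 2 alone the values were -0.98 with siNC and -0.36 with siRHOB, and neither passed. Paired by replicate number, CA2 was lower in MK medium in all 3 siNC pairs. With siRHOB it was lower in 2 pairs and higher in 1.

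The balance of the 2 carbonic anhydrases is a ratio within a library and is free of library scaling. The log2 ratio of CA1 to CA2 reads was 4.12, 4.35 and 0.635 in growth siNC libraries and 4.79, 3.92 and 0.607 in growth siRHOB libraries. It was 1.55, 0.684 and -2.32 in MK siNC libraries and 0.341, -0.236 and -2.09 in MK siRHOB libraries. Replicate 3 was lowest in each group, and all 6 pairs of the same number and siRNA were lower in MK medium. The mean difference between media was -3.42, with an exact two-sided permutation p = 0.025 within siRNA arms, where the smallest possible is 0.005. With replicates 1 and 2 alone it was -3.71, with an exact permutation p = 0.0556, the smallest p that 2 against 2 in each arm allows.

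**Figure D2:**
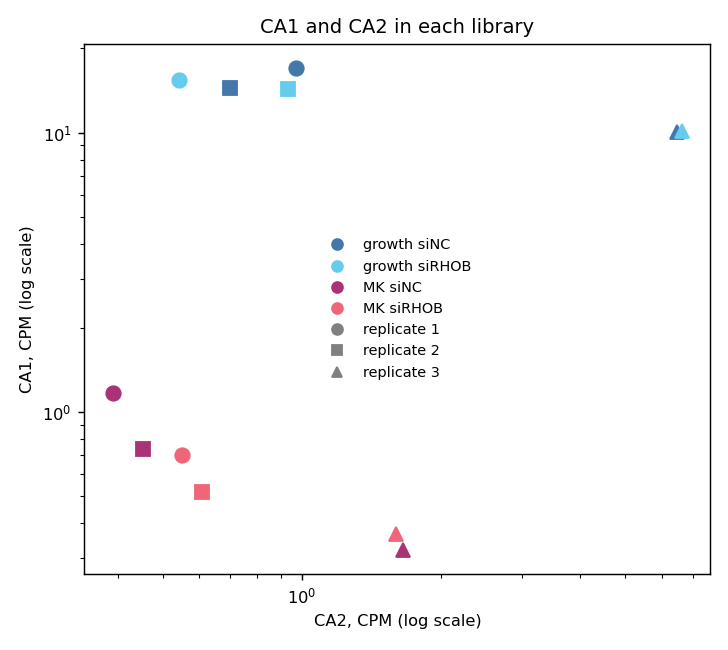
CA1 against CA2 in each of the 12 libraries, both as TMM-normalised CPM on log axes, with colour for the group and marker shape for the replicate number. MK libraries lie lower on the CA1 axis, and the 4 replicate 3 libraries lie to the right on the CA2 axis of the others in their group.

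PKLR, the red cell pyruvate kinase, fell by a like amount. It was at 202, 213 and 113 CPM in growth siNC libraries and at 228, 209 and 107 CPM in growth siRHOB libraries. In MK medium it was at 14.7, 16.2 and 2.24 CPM with siNC and at 16.4, 11.0 and 4.29 CPM with siRHOB. No library of one medium reached the range of the other, and replicate 3 was lowest in each group. The fall was 15.9-fold with siNC (log2 -3.99 ± 0.71, adjusted p = 0.000822) and 17.1-fold with siRHOB (-4.10 ± 0.71, adjusted p = 0.000671). Its widely expressed relative PKM, pyruvate kinase of most tissues, was at an FPKM of 291 ± 15.8 in growth siNC and 280 ± 88.9 in MK siNC libraries (log2 -0.12 ± 0.20, adjusted p = 0.636), and without MK siNC replicate 3 it was called lower, at -0.43.

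BLVRB and BPGM went opposite ways, with small changes. BLVRB was at 145, 153 and 165 CPM in growth siNC and 106, 106 and 60.3 CPM in MK siNC libraries, and at 146, 151 and 137 against 95.6, 94.9 and 63.3 CPM with siRHOB. The media did not overlap, and BLVRB fell 1.70-fold (log2 -0.77 ± 0.21, adjusted p = 0.00792) and 1.71-fold (-0.77 ± 0.21, adjusted p = 0.00732). BPGM was at 32.6, 29.9 and 32.4 CPM in growth siNC and 42.5, 44.9 and 34.7 CPM in MK siNC libraries, and at 27.6, 33.3 and 29.6 against 44.6, 42.4 and 35.9 CPM with siRHOB. Each MK library was above each growth library of its arm, and BPGM rose 1.29-fold (log2 0.36 ± 0.12, adjusted p = 0.0216) and 1.36-fold (0.44 ± 0.12, adjusted p = 0.00774). The siNC call of BPGM was lost without growth siNC replicate 1 (0.38) or 2 (0.32), or without MK siNC replicate 1 (0.32) or 2 (0.28).

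AHSP, the alpha globin chaperone, was low in these cells and fell further. It was at 3.80, 2.39 and 1.36 CPM in growth siNC and 0.502, 0.682 and 0.160 CPM in MK siNC libraries, and at 2.30, 3.45 and 1.49 against 0.727, 0.913 and 0.168 CPM with siRHOB. The media did not overlap, and the MK groups rest on 48 and 74 reads in all. The fall was 5.59-fold with siNC (log2 -2.48 ± 0.67, adjusted p = 0.00819) and 3.97-fold with siRHOB (-1.99 ± 0.65, adjusted p = 0.0212). The siRHOB call was lost without growth siRHOB replicate 2 (-1.65) or MK siRHOB replicate 3 (-1.56), and on FPKM with a pseudocount of 1 the siNC and siRHOB values were -1.57 and -1.36.

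HEMGN stayed abundant in MK medium. It was at 445, 491 and 335 CPM in growth siNC and 428, 423 and 187 CPM in MK siNC libraries, and at 517, 475 and 364 against 427, 399 and 248 CPM with siRHOB. Replicate 3 was lowest in each group and the media overlapped. HEMGN did not pass the test (log2 -0.29 ± 0.31, adjusted p = 0.443 with siNC, and -0.34 ± 0.31, adjusted p = 0.368 with siRHOB). With the replicate number as a block it passed at -0.36 ± 0.14 (adjusted p = 0.0398) and -0.37 ± 0.14 (adjusted p = 0.0344). With replicates 1 and 2 alone the values were -0.15 (adjusted p = 0.0534) and -0.28 (adjusted p = 0.0014), and without MK siNC replicate 3 the siNC value was -0.006.

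TRIM58, a ubiquitin ligase whose studied role in late mouse erythroblasts is the breakdown of dynein, fell in both arms. It was at 77.0, 81.4 and 90.3 CPM in growth siNC and 39.1, 35.4 and 26.7 CPM in MK siNC libraries, and at 92.6, 76.4 and 85.5 against 35.6, 27.9 and 24.1 CPM with siRHOB. Every MK library was lower than every growth library. The fall was 2.46-fold (log2 -1.30 ± 0.16, adjusted p = 5.49e-05) and 2.90-fold (-1.54 ± 0.16, adjusted p = 1.57e-05).

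SOX6, the globin repressor that acts with BCL11A, moved little. It was at 19.4, 20.8 and 24.6 CPM in growth siNC and 28.4, 30.7 and 23.1 CPM in MK siNC libraries, which overlapped, and at 19.7, 22.6 and 22.6 against 28.1, 27.5 and 24.2 CPM with siRHOB, which did not. The log2 fold change was 0.34 ± 0.13 with siNC (adjusted p = 0.0409) and 0.30 ± 0.13 with siRHOB (adjusted p = 0.0677). The siNC call was lost in 14 of 23 alternatives, in which leaving out growth siNC replicate 1 or 2 or MK siNC replicate 1 or 2 gave 0.26, 0.31, 0.31 and 0.25, and the siRHOB value passed in 7 of 23.

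**Figure D3:**
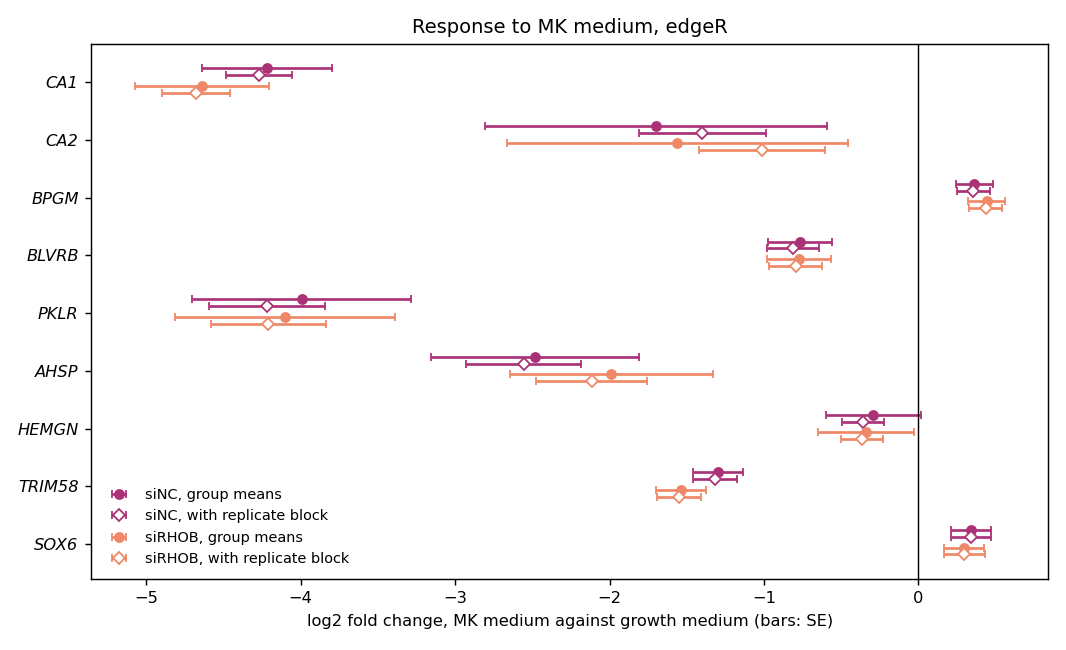
Log2 fold change of MK medium against growth medium for the 9 tested genes, with SE bars, in the siNC and siRHOB arms, from group means (filled) and with the replicate number as a block (open). CA1, PKLR, AHSP, TRIM58 and BLVRB lie left of 0 and BPGM and SOX6 right of it in both arms.

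Replicate 3 differed from the other libraries by an amount that varied by gene. Its CA2 level was above the mean of replicates 1 and 2 by 2.90 and 3.13 on the log2 scale in the siNC and siRHOB growth groups, and by 1.86 and 1.39 in the MK groups. PKLR was below that mean in every group, with differences of -0.88, -1.02, -2.76 and -1.63 in the same order. AHSP was below it too, at -1.12, -0.89, -1.60 and -1.99, and so were HEMGN at -0.48, -0.45, -1.19 and -0.74 and CA1 at -0.64, -0.55, -1.41 and -0.65. In MK medium 8 of the 9 genes were below that mean in both arms, with CA2 the exception. The median difference of the 9 was -0.81 with siNC and -0.59 with siRHOB in MK medium, against 0.05 and -0.12 in growth medium. Such a drop in MK medium was not particular to the 9. The medians with siNC and siRHOB were -1.17 and -1.05 for the globins and -0.77 and -0.52 for the K562 and erythroid markers. For the other red cell enzymes they were -0.20 and -0.20. The share of all tested genes below that mean was not counted. BLVRB was at 0.14 and -0.12 in growth medium and at -0.81 and -0.59 in MK medium. What replicate 3 differed by is not given in the labels. With replicates 1 and 2 alone, CA1, PKLR, AHSP, TRIM58 and BLVRB were called lower and BPGM and SOX6 higher in both arms, 7 and 8 of the 9 in all with HEMGN called in the siRHOB arm, beside 68.9% and 70.6% of 13895 genes.

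**Figure D4:**
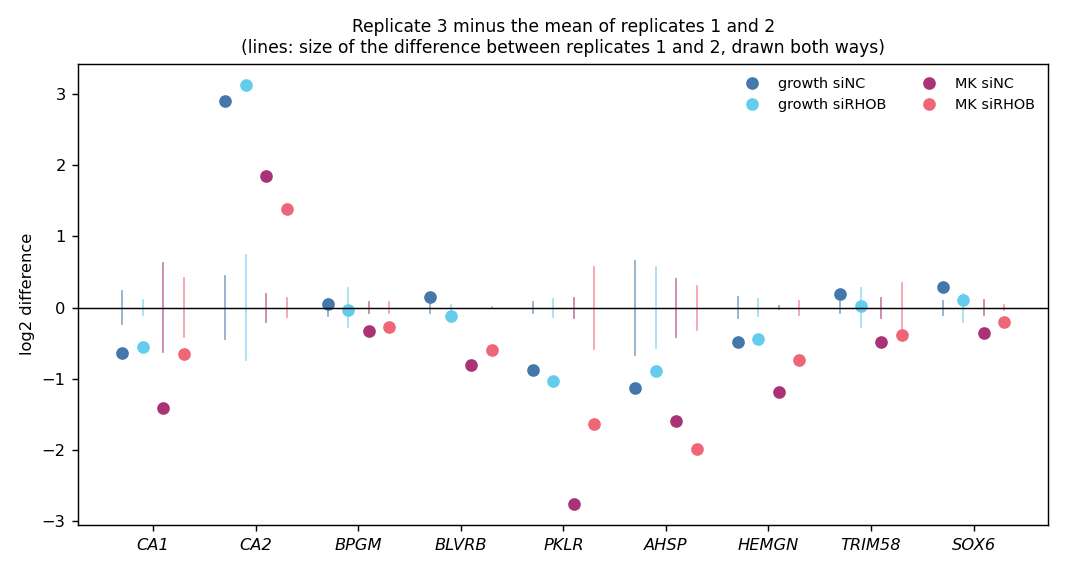
Log2 difference of replicate 3 from the mean of replicates 1 and 2 for the 9 tested genes in each group (points), with thin lines for the size of the difference between replicates 1 and 2 drawn both ways. CA2 lies above 0 and CA1, PKLR, AHSP and HEMGN below 0 in all 4 groups.

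siRHOB against siNC called none of the 9 genes in either medium, and none of the 14026 genes (edgeR, 0% called). An unadjusted p under 0.05 was reached by 156 of them (1.11%) in growth medium and by 50 (0.356%) under MK conditions, none of them among the 9, and DESeq2 called 0 as well. The 95% intervals of the fit of group means give, for 1 gene at a time, the range of differences its libraries allow. They are not adjusted for the number of genes tested. In growth medium they were narrow for BPGM, at -0.33 to 0.19, and SOX6, at -0.28 to 0.29 on the log2 scale, and wide for CA2, at -2.35 to 2.34, or -0.89 to 0.75 with the replicate block. In MK medium TRIM58 was at -0.21 with an interval of -0.56 to 0.15, CA1 at -0.48 with -1.41 to 0.44 (0.008 without MK siNC replicate 1), and AHSP at 0.44 with -1.03 to 1.90. With the replicate block these intervals were narrower, at -0.52 to 0.10 for TRIM58, -1.01 to 0.10 for CA1 and -0.47 to 1.28 for AHSP. The difference of the MK response between siRNA arms was likewise called for 0 of 14026 genes and 0 of the 9 (106 genes, 0.756%, at an unadjusted p under 0.05, none among the 9, and 124 in DESeq2); for CA1 it was -0.42 with an interval of -1.64 to 0.79. The levels of RHOB overlapped between these groups too, as given above.

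**Figure D5:**
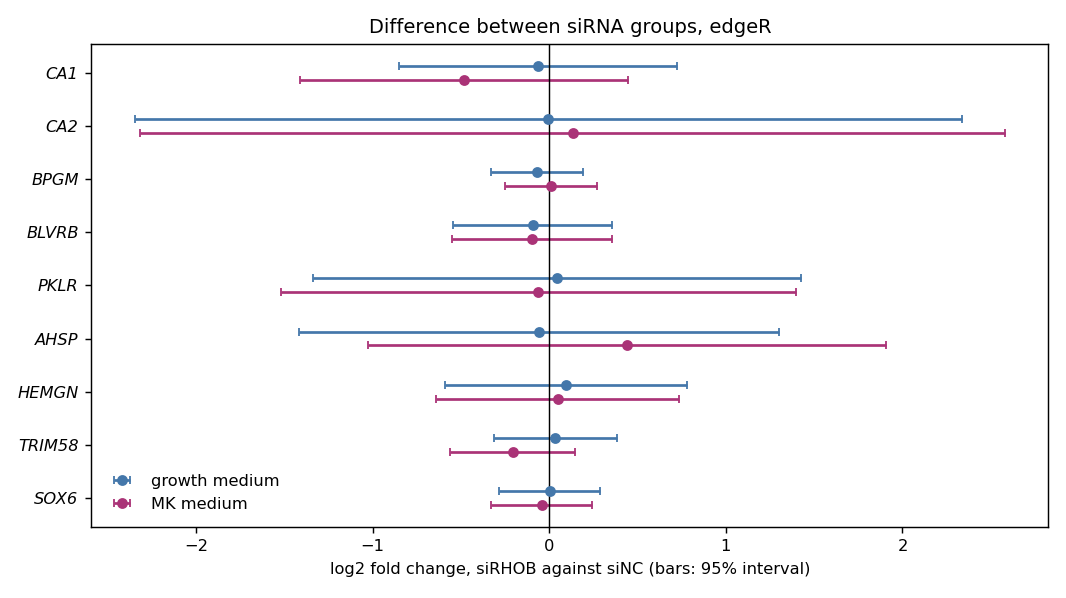
Log2 fold change of siRHOB against siNC for the 9 tested genes in growth and MK medium, with per-gene 95% intervals from the fit of group means. Every interval includes 0, and that of CA2 in growth medium runs from -2.35 to 2.34.

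Other red cell genes gave a mixed picture in MK medium. Of 29 other red cell enzymes tested, 11 fell and 2 rose in each arm, a smaller share than the 58.9% and 60.1% of all genes called. By direction, 28.4% and 29.1% of all genes were called lower and 30.5% and 31.0% higher. With the replicate block 14 fell and 5 rose in each arm, near the 66.5% and 67.7% of all genes called in that fit. The list's median log2 fold change was -0.24 with siNC and -0.22 with siRHOB. The enzymes with the smallest adjusted p were GSR, glutathione reductase (log2 -0.83), BLVRA, the other biliverdin reductase (-1.47), SOD1, superoxide dismutase (-0.84), and LDHB, a lactate dehydrogenase subunit (-0.99), all with siNC. AK1, an adenylate kinase, was among those that rose (log2 0.45, adjusted p = 0.00147).

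Among the 23 other erythroid transcription factors and cofactors tested, 9 fell and 6 rose in each arm, near the share of all genes called (58.9% and 60.1%). The smallest adjusted p belonged to MYB (log2 -1.72), NFIA (-1.76), IKZF1 (-1.65) and E2F2 (-1.22) with siNC. KLF1, the erythroid factor, fell by 1.27 on the log2 scale (adjusted p = 0.0216). GATA1 was up by 0.49 (adjusted p = 0.0123; the call was lost without growth siNC replicate 1, at 0.45, or MK siNC replicate 1, at 0.39). TRIM10, a relative of TRIM58 known in mouse for a role in terminal erythroid differentiation, went the other way from TRIM58, from 0.527 ± 0.60 to 46.6 ± 10.1 CPM with siNC (log2 6.47 ± 0.82, adjusted p = 8.92e-05). Neither GATA1, KLF1 nor TRIM10 was among the 10 genes.

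Of the carbonic anhydrase family 11 genes were tested, CA1 and CA2 included, and 4 rose and 2 fell in each arm, near the 58.9% and 60.1% of all genes called. With the replicate block 6 rose and 3 fell with siNC, and 5 and 3 with siRHOB, beside 66.5% and 67.7% of all genes called in that fit. CA9, a membrane-bound form, rose from 1.63 ± 1.29 to 29.1 ± 6.95 CPM with siNC (log2 4.15 ± 0.79, adjusted p = 0.00123). CA13, a cytosolic form, rose from 6.48 ± 2.35 to 19.0 ± 1.23 CPM (1.55 ± 0.26, adjusted p = 0.000371), and CA8, a relative without enzyme activity, fell by 0.90 ± 0.13 (adjusted p = 0.000179). CA7 and CA12 also passed with siNC (2.61 and 1.15), and their calls were lost without growth siNC replicate 1 or 2, the CA12 call also without growth siNC replicate 3, MK siNC replicate 1 or 2, or MK siRHOB replicate 1 or 2. Of the nearest enzyme relatives of BPGM, PGAM1 was at -0.35 with siNC (adjusted p = 0.0357, lost under RLE and upper quartile scaling and without growth siNC replicate 1 or 2 or MK siNC replicate 2 or 3), and PGAM2 at 1.51 (adjusted p = 0.0584, or 0.00788 with the replicate block; also called without growth siNC replicate 3 or growth siRHOB replicate 3). With siRHOB PGAM2 rose by 3.08 (adjusted p = 0.00249). BCL11B, the relative of BCL11A, did not pass the filter. The SOX6 relatives SOX5 (-1.93) and SOX13 (3.73, on 6 growth reads and 69 MK reads over 3 libraries) moved in opposite directions; the SOX13 call was lost without growth siNC replicate 1 or 2 or MK siNC replicate 3 (3.22, 3.64 and 2.08).

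The globins include the alpha chain that AHSP binds and the chains that SOX6 and BCL11A regulate. Of 8 tested, 3 rose with siNC and 2 with siRHOB, and none of the 8 was called lower, beside 30.5% and 31.0% of all genes called higher and 28.4% and 29.1% lower. HBE1, the embryonic chain, rose from 1429 ± 545.1 to 3713 ± 428.9 CPM with siNC (log2 1.38 ± 0.26, adjusted p = 0.000918). HBG2 (0.88, adjusted p = 0.0465) and HBA1 (0.92, adjusted p = 0.0216) each have a near-identical copy, so their counts are uncertain. HBG1 (0.64), HBD (0.11), HBQ1 (-0.06) and HBZ (-0.17) did not pass with siNC, nor did HBA2 (0.65, adjusted p = 0.21, or 0.0101 with the replicate block), and HBB and HBM did not pass the filter. The HBG2 and HBA1 calls were lost without each of growth siNC replicates 1 and 3 and MK siNC replicates 1 and 2, and the HBG2 call also without each of the other libraries except MK siNC replicate 3 and MK siRHOB replicates 2 and 3.

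Each tested gene was set beside the genes whose log2 CPM followed it most closely over the 12 libraries, as a description with no test, since all libraries share 1 line and differ by medium. The closest to CA1 was GAB1 (Pearson r = 0.997), to PKLR was CS (0.998) and to TRIM58 was TXNL4A (0.998). BLVRB was closest to KLF1 (0.993), BPGM to SELENOI (0.976), AHSP to GNE (0.988) and HEMGN to KIF4A (0.985). CA2 was closest to ALDH2 (0.971), and SOX6 to KCNMB3 (0.960), the lowest of the 9. These were the first of between 10174 and 10175 genes with a mean of at least 5 CPM.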

How the data were processed

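PolyT-selected RNA of K562 cells was sequenced in 12 libraries, grouped by sample title. The authors deposited 2 tables by gene symbol, read counts (whole numbers) and FPKM values. The FPKM deposited by the authors equal the counts divided by a fixed length and the column total. The build GRCh37.p13 and the tools edgeR, featureCounts 2.0.2 and HISAT2 2.2.1 appear, with no role or order, per the submitters' processing notes; strand and multi-mapping settings are not stated there.

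Counts were tested in R 4.3.3 with edgeR 4.0.16 (two-sided quasi-likelihood F test, robust, TMM, filterByExpr by group, 14026 of 19225 genes kept, adjusted p under 0.05) in 1 fit of 4 group means over 12 libraries, after testing on simulated data. limma 3.58.1 (FPKM) and DESeq2 1.42.0 were alternatives. SE is the absolute log2 fold change over the square root of F. Nothing in the labels states that replicates came from different cultures, and p-values then reflect the spread of these libraries, which may be technical. Same-numbered libraries deviated together from their group means (correlations of 0.151 to 0.601, 0.190 to 0.476 and 0.340 to 0.834 for numbers 1, 2 and 3 over 14026 genes). Deviations within a group cancel, so the shared shift of replicate 3 alone makes numbers 1 and 2 correlate. These values show that replicate 3 stood apart, and cannot tell whether numbers 1 and 2 pair samples. The numbers, taken from the titles, were used as the block and for the pairs. The 10 genes and the lists were chosen with earlier results of these data known. The text names the 10 genes, the siRNA target, the family partners and globins, the genes of other lists with the smallest adjusted p, the closest genes by correlation, and a few genes (AK1, KLF1, GATA1, CA7 and CA12) chosen after their values were seen. The 95% intervals of fold changes carry the spread between libraries; the limit of 3 reads covers counting error only.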

Additional observations from a re-analysis of the deposited data

How the results depend on the processing

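With siNC and siRHOB, the directions and calls of CA1, BLVRB, PKLR and TRIM58 were the same in all 23 alternatives (RLE and upper quartile scaling, DESeq2, other count filters, FPKM with limma, the replicate block, only the groups compared, replicates 1 and 2 alone, and each library left out), as were those of AHSP with siNC and BPGM with siRHOB. The number of the 9 genes called was 5 to 7 with siNC and 5 to 7 with siRHOB over the alternatives that left out 1 library, and 0 for the other 3 comparisons. Genes called over all were 7119 to 8492 with siNC, 7350 to 8906 with siRHOB and 0 in the other 3. With the replicate block 9 and 8 of the 9 genes were called in the siNC and siRHOB arms, beside 66.5% and 67.7% of all genes in that fit. For these genes the block ended no call, and the 3 siRNA comparisons stayed at 0. FPKM with no filter called 6 genes for siRHOB against siNC in MK medium and 1 for the difference of the MK response between arms, and replicates 1 and 2 alone called 1 for siRHOB against siNC in growth medium; none was among the 9, and the cause was not tested.

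The CA1 to CA2 log2 ratio difference lay between -4.04 and -2.84 when 1 library was left out, and was -3.71 with replicates 1 and 2 alone (exact permutation p = 0.0556), where fewer libraries bound the p; with the replicate block the exact p was 0.0312. For RHOB the log2 difference between siRNA groups lay between -1.10 and -0.13 in growth medium and between -0.32 and 0.48 in MK medium over left-out libraries; in MK medium it turned to 0.17 without MK siRHOB replicate 1, 0.03 without MK siRHOB replicate 2 and 0.48 without MK siNC replicate 3. Low counts limit CA1, CA2 and AHSP in MK medium and BCL11A throughout.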
